A study of Sus scrofa with 12 samples.

Results

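The cytosolic ribosomal protein (RP) genes were taken from the deposited input RNA table of porcine granulosa cells by gene symbol: RPS or RPL followed by a number, with or without the suffix letters A, X or L, and RPLP0, RPLP1 and RPLP2. The pattern matched 65 of 18060 genes, 28 of the small and 37 of the large ribosomal subunit, spread over 17 chromosomes with at most 9 on one of them, chromosome 6. The cells were primary granulosa cells, which line the ovarian follicle around the oocyte, taken from antral follicles of mature sows of a Duroc, Yorkshire and Landrace cross and grown in medium with serum. They were kept for 12 h at 21% O2 (normoxia) or 1% O2 (hypoxia), with no transgene or drug in either condition. There were 3 biological replicates per condition. From each, fragmented poly(A) RNA was sequenced before (input) and after (IP) pulldown with an antibody against N6-methyladenosine (m6A), the commonest internal modification of mRNA, which made 12 libraries in all. The sources used here do not say whether replicates were different sows.

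Ribosomes translate mRNA, and each one is built from ribosomal RNA and one set of RPs divided between a small subunit, which reads the mRNA, and a large subunit, which joins amino acids. RP mRNAs are among the most abundant mRNAs of most cells. Vertebrate RP mRNAs begin with a terminal oligopyrimidine (TOP) tract, through which the kinase complex mTORC1 and the RNA-binding protein LARP1 control their translation and stability. Most RP genes also have processed pseudogenes, and some have a near-identical paralog. The sources used here do not say how reads that fit several copies were counted, so the level of a single RP gene is less certain than that of a gene with no copies.

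Levels are in FPKM (fragments per transcript length and library size), which set each gene against the rest of its own library. A change in RNA per cell that all genes share cannot be seen on this scale, and in bulk RNA fewer cells of a type and less RNA per cell cannot be told apart. Total FPKM ran from 294929 to 326804 per input library, and no fragment counts could be recovered, so the depth is unknown. Hypoxia library 3 had 8886 genes at 1 FPKM or more, against 9813 to 10212 in the other 5 input libraries. The granulosa markers FSHR, FOXL2, INHA, INHBA, AMHR2, NR5A1 and GATA4 were detected in both conditions, while CYP19A1, AMH and HSD17B1 had a mean under 1 FPKM. All 7 detected ones had a negative log2 fold change, as had 7362 of all 10196 tested genes. Their median was -0.29, beside -0.26 over all tested genes, and 0.005 after median-ratio scaling, beside -0.02. Of the 7, 2 were called lower in hypoxia (28.6%, against 21.1% of all genes). These were FSHR (9.74 to 5.52 FPKM, limma adjusted p = 0.0101, 0.141 after median-ratio scaling) and AMHR2 (2.72 to 0.784 FPKM, 0.0209, 0.0881 after scaling). Of the leukocyte markers, PTPRC reached at most 0.0768 FPKM in any library and LYZ at most 1.09 FPKM. The third, CD68, had 1.25, 0.803 and 0.805 FPKM in normoxia and 1.60, 1.22 and 3.55 FPKM in hypoxia (log2 fold change 0.61, adjusted p = 0.158), highest in hypoxia library 3. Theca markers were INSL3, at most 0.240 FPKM in any library, and PTCH1, while CYP17A1 was not found by symbol. PTCH1 had a mean of 1.39 FPKM in normoxia and 0.903 FPKM in hypoxia, with no overlap (log2 fold change -0.35, limma adjusted p = 0.201). The endothelial marker VWF reached at most 0.120 FPKM. Another endothelial marker, PECAM1, had a mean of 6.56 FPKM in normoxia and 2.81 FPKM in hypoxia (limma adjusted p = 0.00414), and the part of other cells in the results below was not tested.

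RP mRNAs were highly abundant in both conditions, and 60 of the 65 genes had a mean of at least 100 FPKM over the 6 input libraries. RPS2, a small-subunit protein at the mRNA entry channel, was the highest, at 1884, 2244 and 2413 FPKM in normoxia libraries 1 to 3 and 2177, 1599 and 2613 FPKM in hypoxia libraries 1 to 3. It ranked 14 among all genes in normoxia and 15 in hypoxia (chr3:40001326-40003107, plus strand, Sscrofa11.1). RPLP1 followed, with 1781, 1996 and 2242 FPKM in normoxia and 1987, 1504 and 2476 FPKM in hypoxia. RPLP0 had 1494, 1624 and 1780 FPKM in normoxia and 1673, 1232 and 1937 FPKM in hypoxia. RPLP0 and RPLP1 belong to the stalk of the large subunit that recruits elongation factors. In each of these 3 genes hypoxia library 2 was the lowest and hypoxia library 3 the highest of the 6, so the conditions overlapped. RPS2 (2180 ± 270 FPKM in normoxia, SD, n = 3) and RPLP1 (2006 ± 231) differed by less than their SD, though RPS2 was the higher in each library.

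The lowest member was RPL3L, known as a large-subunit paralog of heart and skeletal muscle. It was listed at 0, 0.234 and 0.177 FPKM in normoxia and at 0, 0.0300 and 0 FPKM in hypoxia, and was the 1 member too low to be tested. The other 4 members under 100 FPKM on average were the paralogs RPS27L, RPL7L1 and RPL26L1, and RPL11.

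**Figure D1:**
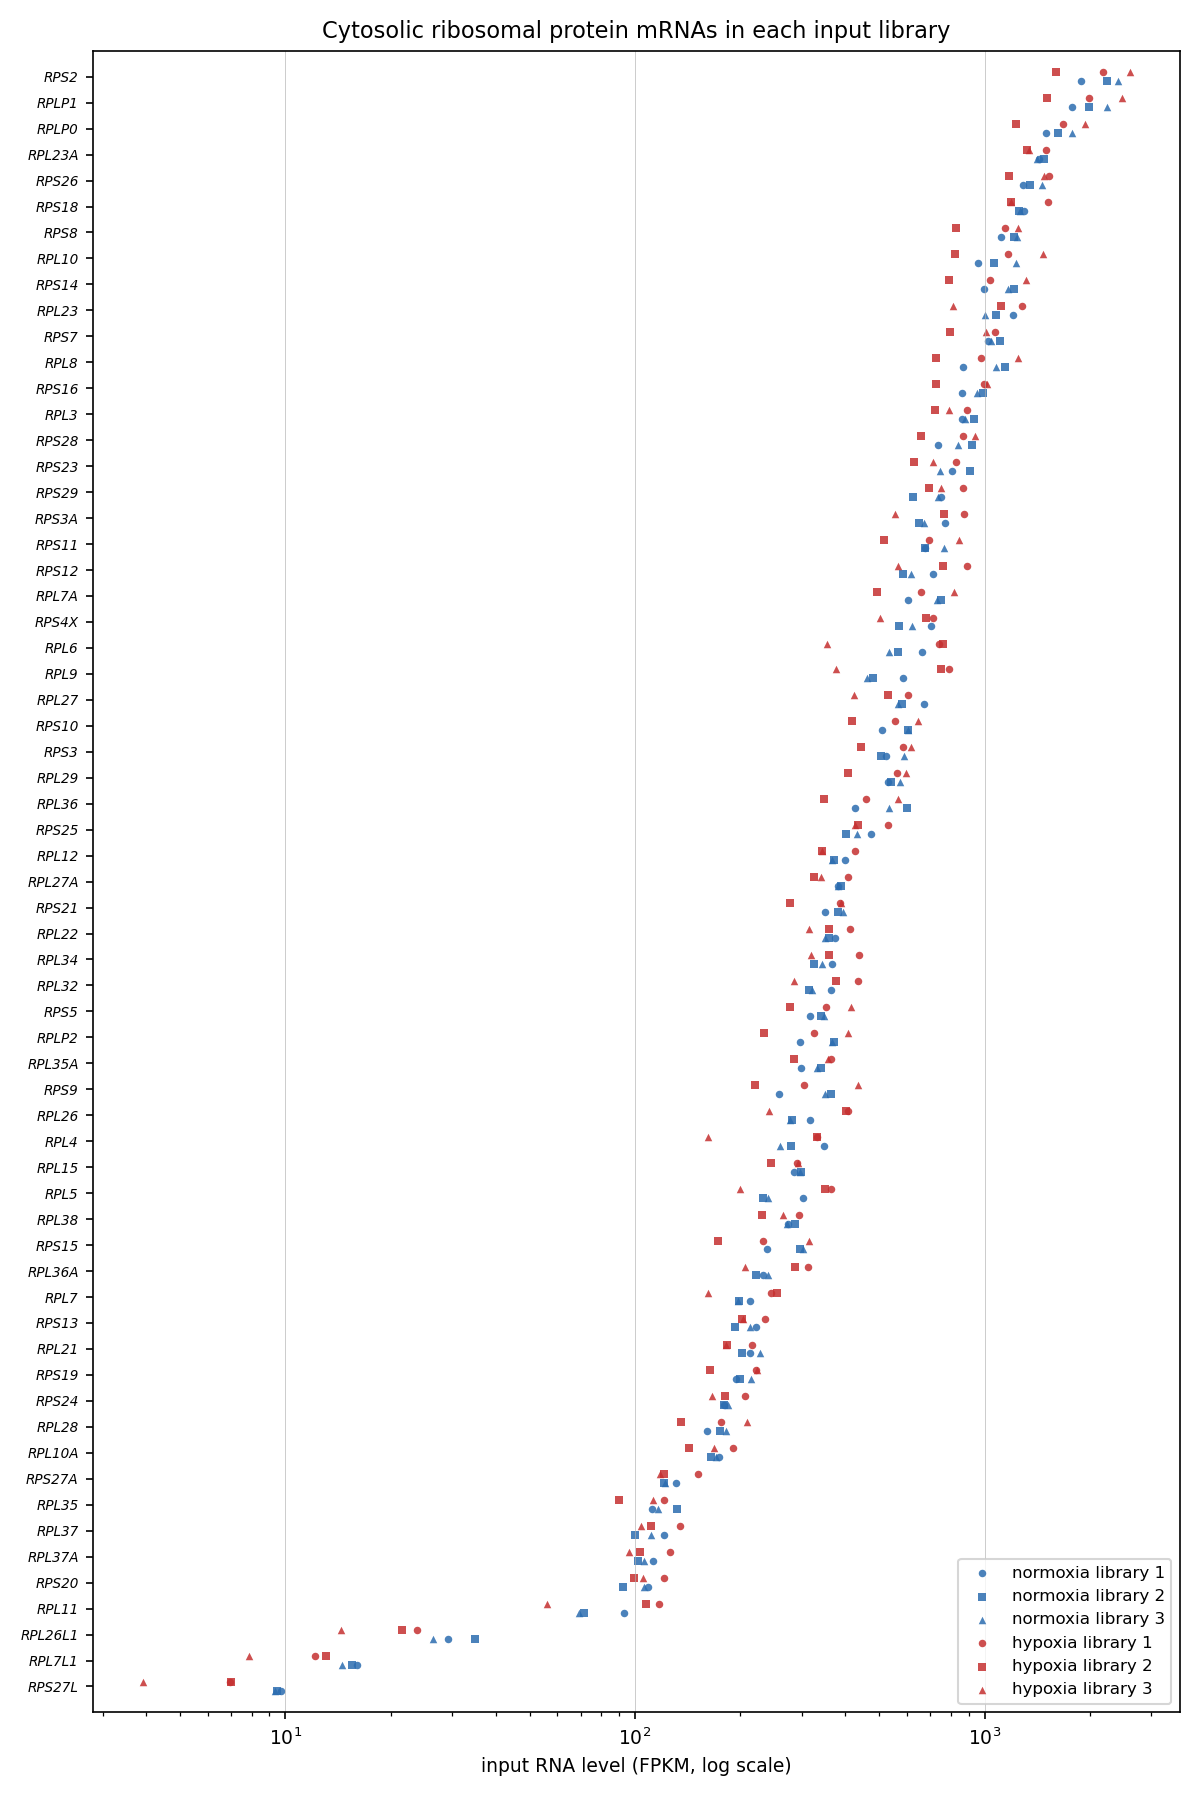
Input RNA level of the tested cytosolic RP genes (1 is not shown), ordered by mean level, on a logarithmic FPKM axis. Blue marks are the 3 normoxia libraries and red marks the 3 hypoxia libraries, with one shape per library number. The colours lie within each other from RPS2, at about 2180 FPKM in normoxia, down to RPL11, and are separate only for the 3 lowest rows, RPL26L1, RPL7L1 and RPS27L.

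Whether 12 h of hypoxia changed RP mRNA levels was asked with limma on log2(FPKM + 1) over 10196 genes, with Benjamini-Hochberg adjustment over all of them. Of 64 tested members 0 were called higher and 0 lower at an adjusted p under 0.05. Among all tested genes 26.5% were called, 21.1% lower and 5.4% higher. Among the 376 other genes with a mean of at least 100 FPKM the share was 25.8%. At an unadjusted p under 0.05 the count was 2 members, beside 38.2% of all genes. According to the authors' deposited table, 0 of 65 members were marked significant, against 13.5% of all genes. That table gave 3 members an unadjusted p under 0.05 (20.9% of all genes), among them RPL9 (0.0433) and RPL26 (0.0474). The lowest q-value of a member in the authors' deposited table was 0.148.

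The differences of the members were small and on both sides of 0. The log2 fold changes, hypoxia over normoxia, ran from -0.63 to 0.26, with a median of -0.03 and a median SE of 0.175. Over all tested genes the median was -0.26 and the median SE 0.205. Over the 376 other genes at 100 FPKM or more they were -0.11 and 0.178. The 3 lowest values were those of the paralogs RPS27L, RPL26L1 and RPL7L1, and the other 61 members lay between -0.25 and 0.26, above the median of all genes. The 95% intervals of 62 members stayed within 1 log2 unit of 0 (96.9%). This held for 55.3% of all genes and 71.5% of the other genes at 100 FPKM or more. The intervals of 6 members (9.38%) lay wholly above the median of all genes, against 14.4% of all genes and 24.7% of the other high-level genes. After median-ratio scaling, which moved the median of all genes to -0.02, the median of the members was 0.28 and 0 were called, with 14.7% of all genes called. The scaled median of the other genes at 100 FPKM or more was 0.20. In 3 members every hypoxia library was below every normoxia library, and in 0 above, against 44.1% of all genes in either direction and 34.9% lower.

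**Figure D2:**
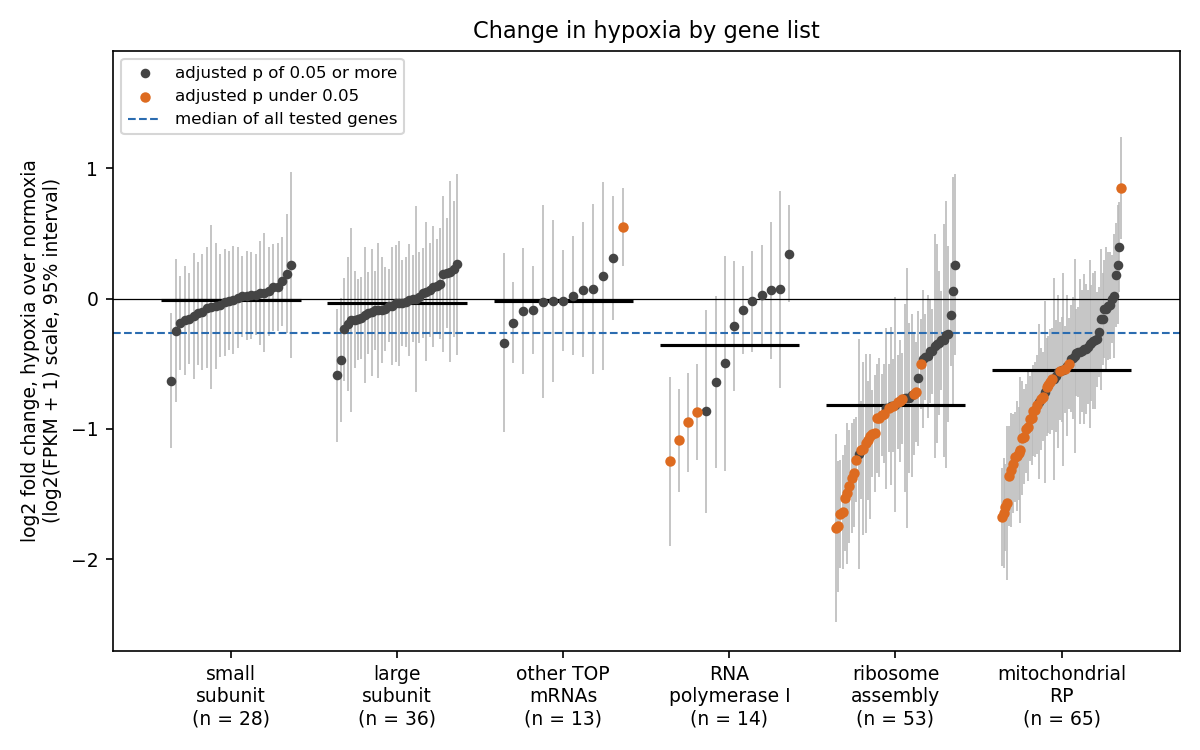
Log2 fold change of input RNA, hypoxia over normoxia on the log2(FPKM + 1) scale, for the small-subunit and large-subunit RP genes and for related gene lists. Each point is a gene with its 95% limma interval, orange points have an adjusted p under 0.05, black bars are list medians and the dashed line is the median of all tested genes (-0.26). The RP points lie around 0 with none in orange, while 29 of 53 ribosome assembly genes and 29 of 65 mitochondrial RP genes are orange and below 0. Of all tested genes 21.1% were called lower.

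Both subunits had near-equal values. The 28 small-subunit genes had a median log2 fold change of -0.01 and the 36 tested large-subunit genes -0.04. RPS3, which lines the mRNA entry channel, had 523, 506 and 590 FPKM in normoxia and 585, 442 and 615 FPKM in hypoxia (log2 fold change 0.01, SE 0.165). RPS27A, made as a fusion with ubiquitin, had 131, 121 and 122 FPKM in normoxia and 151, 121 and 118 FPKM in hypoxia (0.06, SE 0.146). Neither gene separated the conditions.

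In the large subunit, the stalk genes RPLP0, RPLP1 and RPLP2 had log2 fold changes of -0.04, -0.04 and -0.13, with SEs of 0.189, 0.203 and 0.221. RPL10, which joins late in assembly near the catalytic centre, had 960, 1067 and 1228 FPKM in normoxia and 1167, 822 and 1466 FPKM in hypoxia (0.05, SE 0.226). RPL5 and RPL11 bind the 5S ribosomal RNA together, and outside the ribosome this complex inhibits MDM2, the ubiquitin ligase of p53. RPL5 had 302, 233 and 241 FPKM in normoxia and 363, 349 and 199 FPKM in hypoxia. RPL11 had 93.2, 71.3 and 69.0 FPKM in normoxia and 117, 108 and 55.9 FPKM in hypoxia. In both genes hypoxia libraries 1 and 2 were above every normoxia library and hypoxia library 3 was below them all. Their log2 fold changes were 0.19 (SE 0.253, limma adjusted p = 0.634) and 0.21 (SE 0.294, adjusted p = 0.659).

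The paralogs were the members with the lowest fold changes, and none of the tested ones passed limma with all 6 libraries and no replicate block. RPS27L, a paralog of RPS27 known in human cells as a p53 target (chr1:108881552-108890283, plus strand), had 9.71, 9.46 and 9.32 FPKM in normoxia and 6.95, 7.00 and 3.91 FPKM in hypoxia. Every hypoxia library was below every normoxia library, and the log2 fold change was -0.63 (SE 0.219, 95% interval -1.15 to -0.11, limma adjusted p = 0.0761). RPL26L1, a close copy of RPL26 (chr16:51267479-51276696, minus strand), had 29.1, 34.8 and 26.4 FPKM in normoxia and 23.8, 21.6 and 14.4 FPKM in hypoxia. Its values did not overlap either (-0.59, SE 0.216, adjusted p = 0.0889). RPL7L1, a paralog of RPL7 (chr7:37940834-37951324, plus strand), had 16.1, 15.5 and 14.6 FPKM in normoxia and 12.1, 13.1 and 7.88 FPKM in hypoxia (-0.47, SE 0.202, adjusted p = 0.133). Each of the 3 had its lowest value in hypoxia library 3. After median-ratio scaling their log2 fold changes were -0.36, -0.29 and -0.18, with adjusted p of 0.225, 0.353 and 0.520. The further paralogs RPL10L, RPL22L1 and RPL39L were not analysed here.

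RP genes whose symbols fall outside the pattern showed like values, except RPL36AL, which lay below the members other than paralogs (-0.25 to 0.26). Of RPSA, RPL36AL, RACK1 and FAU 0 passed limma, 0 at an unadjusted p under 0.05. The small-subunit genes RPSA and RACK1 had log2 fold changes of 0.11 and -0.01. RPL36AL, the copy of RPL36A, had 56.1, 52.8 and 52.4 FPKM in normoxia and 47.0, 49.5 and 30.5 FPKM in hypoxia, with no overlap (-0.37, SE 0.202, limma adjusted p = 0.231). FAU, a fusion with a ubiquitin-like protein, had -0.13, though the deposited description of that row names a different protein. The table held 9 more RP genes by description or through a table of gene names, and 0 of these 9 passed. The one described as ribosomal protein S6, the substrate of the S6 kinases (ENSSSCG00000005169), had 138, 113 and 107 FPKM in normoxia and 158, 150 and 79.2 FPKM in hypoxia (0.06, SE 0.278).

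The members together took the same share of total FPKM in both conditions within the spread between libraries. The share was 11.1%, 11.2% and 11.6% in normoxia libraries 1 to 3 and 12.0%, 10.5% and 11.3% in hypoxia libraries 1 to 3, or 11.3% ± 0.231 and 11.3% ± 0.749 (SD, n = 3). Hypoxia library 1 was the highest and hypoxia library 2 the lowest of the 6. The small subunit had 5.65% in normoxia and 5.61% in hypoxia, and the large subunit 5.67% and 5.66%. The 20 other genes with the highest levels took 18.3% ± 0.416 of total FPKM in normoxia and 22.6% ± 1.48 in hypoxia. With these 20 genes left out of the total, the members took 13.9% ± 0.276 and 14.6% ± 1.17, a difference still below the SD of the hypoxia libraries. Mitochondrial RP genes, by contrast, had 0.415% ± 0.0117 in normoxia and 0.270% ± 0.00732 in hypoxia, and ribosome assembly genes 0.267% ± 0.0131 and 0.162% ± 0.0297. With 3 against 3 libraries an exact permutation test could not go below p = 0.10, and none was run on these sums.

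**Figure D3:**
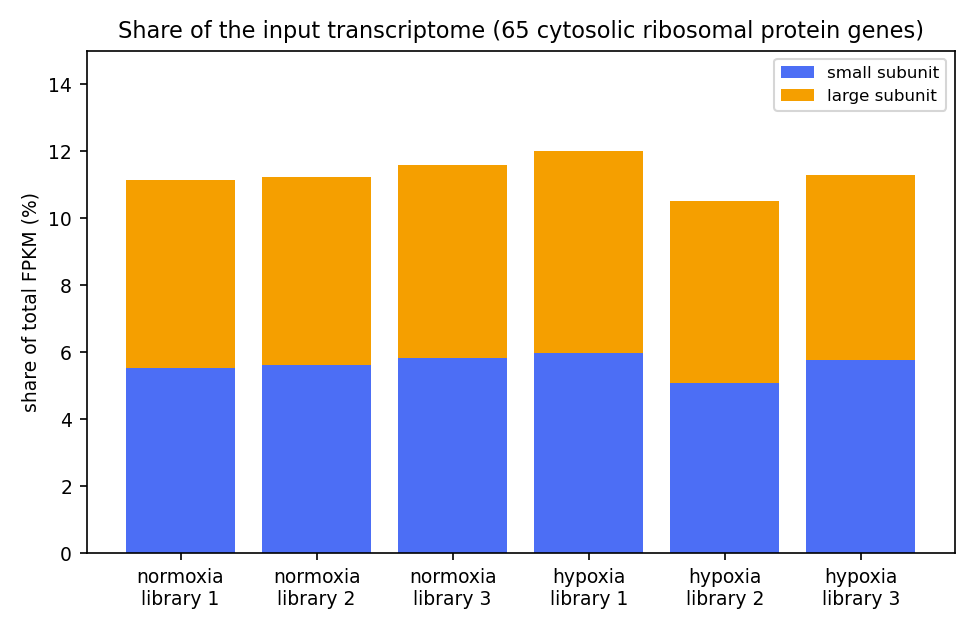
Share of total FPKM taken by the 65 cytosolic RP genes in each input library, in percent, stacked by small subunit (blue) and large subunit (orange). The 6 bars lie between 10.5% and 12.0%, and the highest and the lowest are both hypoxia libraries.

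Genes that act in making ribosomes without being part of the finished ribosome had other values. Of 53 tested ribosome assembly genes 29 (54.7%, against 21.1% of all genes) were lower in hypoxia and 0 higher, with a median log2 fold change of -0.81. After median-ratio scaling 18 were lower (34.0%, against 8.07% of all genes), and without normoxia library 2 the count was 15 (with 7.83% of all genes lower). Among 17 small-subunit assembly genes 11 fell (median -0.92), among them NOC4L (8.54 ± 0.590 to 2.07 ± 0.499 FPKM, log2 fold change -1.65) and RRP9, which binds the U3 small nucleolar RNA (-1.64). Among 20 large-subunit assembly genes 11 fell (median -0.79), among them PPAN (14.1 ± 1.78 to 3.57 ± 1.02 FPKM, -1.75) and BOP1 (-1.34), both factors of large-subunit maturation. Among 10 nucleolar genes, those of RNA-modifying particles together with NCL and NPM1, 5 fell (median -0.89). They included NOP56, a core protein of the particles (25.3 ± 1.72 to 7.21 ± 3.10 FPKM, -1.76), and NOLC1, the nucleolar chaperone of the particles (-1.49).

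Dedicated chaperones carry single RPs to the nucleolus, and 2 of 6 fell (33.3%, against 21.1% of all genes) and 0 after scaling (8.07% of all genes). GRWD1, the chaperone of RPL3, had -0.91 (limma adjusted p = 0.0137), which lost the call under median-ratio scaling (0.112), without normoxia library 2 (0.0769), without normoxia library 3 (0.0623) and without hypoxia library 1 (0.0619). AAMP, the counterpart of the yeast chaperone of Rpl10, had -0.72 (adjusted p = 0.0177), with 0.317 after scaling and 0.0939, 0.0748 and 0.0769 without the same libraries. The client genes RPL3 and RPL10 had -0.16 and 0.05 (adjusted p = 0.431 and 0.893).

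RNA polymerase I makes the precursor of the large ribosomal RNAs. The list of 14 tested genes held its subunits POLR1A to POLR1H and the transcription factors UBTF, RRN3 and TAF1A to TAF1D. Of these genes 4 fell (28.6%, against 21.1% of all genes), with 0 higher. After scaling 1 was lower (7.14%, against 8.07% of all genes), and the list median of -0.35 was 0.09 below that of all genes, so both shares were near those of all genes. The subunit gene POLR1A had 12.6 ± 0.472 FPKM in normoxia and 5.44 ± 1.12 FPKM in hypoxia, a log2 fold change of -1.09 (limma adjusted p = 0.00444, 0.0615 after scaling). POLR1B, the second-largest subunit, had 11.0 ± 1.06 and 4.25 ± 1.79 FPKM (-1.25, adjusted p = 0.0163). Its adjusted p was 0.0663, 0.0774 and 0.0503 without normoxia libraries 1, 2 and 3, and 0.0509 without hypoxia library 1.

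Other TOP mRNAs code mainly for translation factors, and the list also held HNRNPA1, TPT1 and IMPDH2, which are not among these. Of 13 tested genes 1 rose (5.4% of all genes did) and 0 fell (21.1% of all genes did), with a median log2 fold change of -0.02. The one that rose was EEF2, the elongation factor that moves the ribosome along mRNA, from 959, 949 and 985 FPKM in normoxia to 1544, 1268 and 1427 FPKM in hypoxia. Its libraries did not overlap (0.55, SE 0.127, limma adjusted p = 0.0191). The call was lost without normoxia libraries 1, 2 or 3 (0.0819, 0.0930 and 0.0718) or hypoxia library 1 (0.0804).

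Among 8 regulators of TOP mRNAs 2 rose, where 5.4% of all genes rose. Another 2 fell (25%, against 21.1% of all genes), a share near that of all genes. The kinase gene MTOR fell from 14.5 ± 0.171 to 6.20 ± 0.560 FPKM (-1.11, limma adjusted p = 0.00209), and RPTOR, its partner in mTORC1, from 4.08 ± 0.506 to 1.70 ± 0.197 FPKM (-0.91, adjusted p = 0.00775, 0.0511 without normoxia library 2). The mTORC1 inhibitor gene DDIT4 rose 16.1-fold (log2 fold change 3.92). EIF4EBP1, a translation repressor that mTORC1 switches off, had 44.7 ± 7.59 and 79.7 ± 15.1 FPKM (0.81, adjusted p = 0.0220), with 0.0895 and 0.0894 without normoxia libraries 1 and 3 and 0.0830 without hypoxia library 1. LARP1 had 22.1, 21.6 and 20.5 FPKM in normoxia and 14.0, 18.8 and 10.3 FPKM in hypoxia, with no overlap (-0.58, SE 0.216, adjusted p = 0.0924, 0.0209 without hypoxia library 2). EIF4EBP2 (-0.32), RPS6KB1 (-0.05) and RPS6KB2 (0.14) did not pass. These are mRNA levels, and neither protein activity nor translation was measured.

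Mitochondrial RPs build the separate ribosome of mitochondria. Of 65 tested genes 29 fell (44.6%, against 21.1% of all genes) and 1 rose (5.4% of all genes did), with a median log2 fold change of -0.54. After median-ratio scaling 13 were lower (20%, against 8.07% of all genes) and 1 higher (677 of all 10196 genes were). Without normoxia library 2 the lower count was 17 (with 7.83% of all genes lower). MRPL34 fell from 20.3 ± 2.03 to 5.66 ± 0.817 FPKM (-1.68) and MRPL40 from 40.9 ± 4.38 to 12.5 ± 2.42 FPKM (-1.65). MRPL45, the one that rose, had 19.7 ± 3.39 and 36.1 ± 3.28 FPKM (0.85, limma adjusted p = 0.0101), with 0.0611 and 0.0536 without normoxia libraries 2 and 3 and 0.0528 without hypoxia library 1. The difference between this list and the cytosolic RP genes was not tested.

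The RP genes varied more between the hypoxia libraries than between the normoxia libraries. The highest value was a median of 1.48 times the lowest within hypoxia and 1.16 times within normoxia. These ratios were not computed for other genes, so the contrast cannot be called particular to RP genes. Hypoxia library 2 was the lowest of its condition for 37 tested members. Hypoxia library 3 was the lowest for 27 and the highest for 23. RPL6 was the most uneven, with 661, 567 and 534 FPKM in normoxia and 740, 762 and 353 FPKM in hypoxia, a ratio of highest to lowest of 2.16 within hypoxia. RPL4 (332, 333 and 162 FPKM in hypoxia) and RPL9 (790, 749 and 376) were low in hypoxia library 3 as well. RPS9 went the other way, with 259, 364 and 349 FPKM in normoxia and 303, 220 and 434 FPKM in hypoxia, as did RPS15 (233, 173 and 315 FPKM in hypoxia).

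The same split ran between libraries of normoxia. Of the 27 members lowest in hypoxia library 3, 23 were highest in normoxia library 1, and of the 23 highest in hypoxia library 3, 22 were lowest in normoxia library 1. Across the 64 members the log2 ratio of hypoxia library 3 to the mean of the other hypoxia libraries had r = -0.90 with that of normoxia library 1 to the other normoxia libraries, and across 10150 genes r = -0.68. Each axis holds libraries shared by all points, and the genes are not independent. The members low in hypoxia library 3 had a median gene span of 6003 bases and 20 of 27 had a listed m6A peak, while those high in it had 3282 bases and 9 of 23 had a peak. For the 37 members lowest in hypoxia library 2 the median span was 3527 bases, and 16 had a peak. What sets these libraries apart was not tested.

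**Figure D4:**
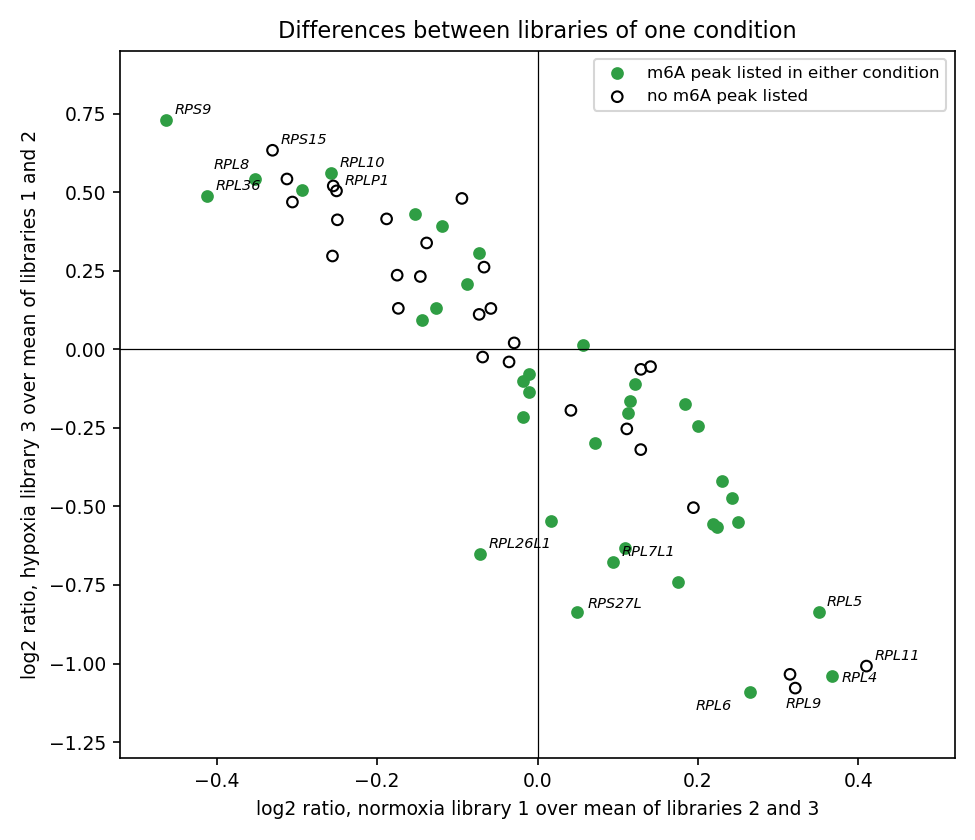
Differences between libraries of one condition for the 64 tested RP genes: log2 ratio of normoxia library 1 to the mean of normoxia libraries 2 and 3 (x axis) and of hypoxia library 3 to the mean of hypoxia libraries 1 and 2 (y axis). Filled points have a listed m6A peak in either condition. The points run from RPS9 at the upper left to RPL4, RPL9 and RPL11 at the lower right (r = -0.90).

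Leaving out hypoxia library 3 changed the calls. Without it 6 of 64 tested members were called higher, a share near the 11.2% of all genes, and 1 lower, beside 31.2% of all genes. Among the higher ones were RPL9 (log2 fold change 0.61, limma adjusted p = 0.00872), RPL26 (0.47, 0.0190), RPL11 (0.54, 0.0194), RPL5 (0.47, 0.0312) and RPL36A (0.38, 0.0463). All of these had their lowest hypoxia value in library 3, so leaving it out had to raise their fold changes. The lower one was RPS27L (-0.40, adjusted p = 0.0388). With all 6 libraries RPL9 had the highest log2 fold change of any member, 0.26, with an adjusted p of 0.567; it was chosen after its values were seen. The median of the members without that library was -0.09 and that of all genes -0.17. Leaving out any of the other 5 libraries left 0 members called.

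The authors' deposited peak lists, 1 for each condition, placed m6A on about as many RP genes in hypoxia as in normoxia. The enrichments of IP over input given below are linear folds and the authors' values. They describe peaks within a list, and where values of both lists stand side by side no difference between the conditions was tested. In normoxia 35 of 65 members (53.8%) had at least 1 of 46 peaks, and in hypoxia 34 (52.3%) had at least 1 of 45. Of all tested genes 85.8% had a peak in normoxia and 79.8% in hypoxia. Of the 376 other genes at 100 FPKM or more, 78.7% had a peak in normoxia and 71.8% in hypoxia. Peaks were listed for 23 of 37 large-subunit genes in each condition, and for 12 of 28 small-subunit genes in normoxia and 11 in hypoxia.

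The set of members with a peak was nearly the same in both lists. Both held 33 of the 36 members with a peak in either list. Among all genes, both held 10167 of the 12482 with a peak in either, so most genes were shared too. RPL8 and RPS27L had a peak in normoxia alone, and RPL27A in hypoxia alone. Of the 46 normoxia peaks 36 overlapped a hypoxia peak of a member by at least 1 base. Neither list held a peak for 29 members, among them the 3 most abundant, RPS2, RPLP1 and RPLP0. The next by level, RPL23A and RPS26, had a peak in both lists. The stalk gene RPLP2, RPL11 and RPL3L had none either. Members with a peak had a median level of 331 FPKM and those without 556 FPKM. Their median log2 fold changes of input RNA were -0.01 and -0.04.

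Peaks of RP genes were mostly annotated to 3′ UTRs, 30 of 46 (65.2%) in normoxia and 33 of 45 (73.3%) in hypoxia. Of all listed peaks 45.8% and 43.7% were in 3′ UTRs, and of the peaks of other genes at 100 FPKM or more 48.8% and 48.2%. A 5′ UTR held 11 member peaks in normoxia and 6 in hypoxia, and the rest were annotated as exonic. Spans cover the introns between their ends.

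**Figure D5:**
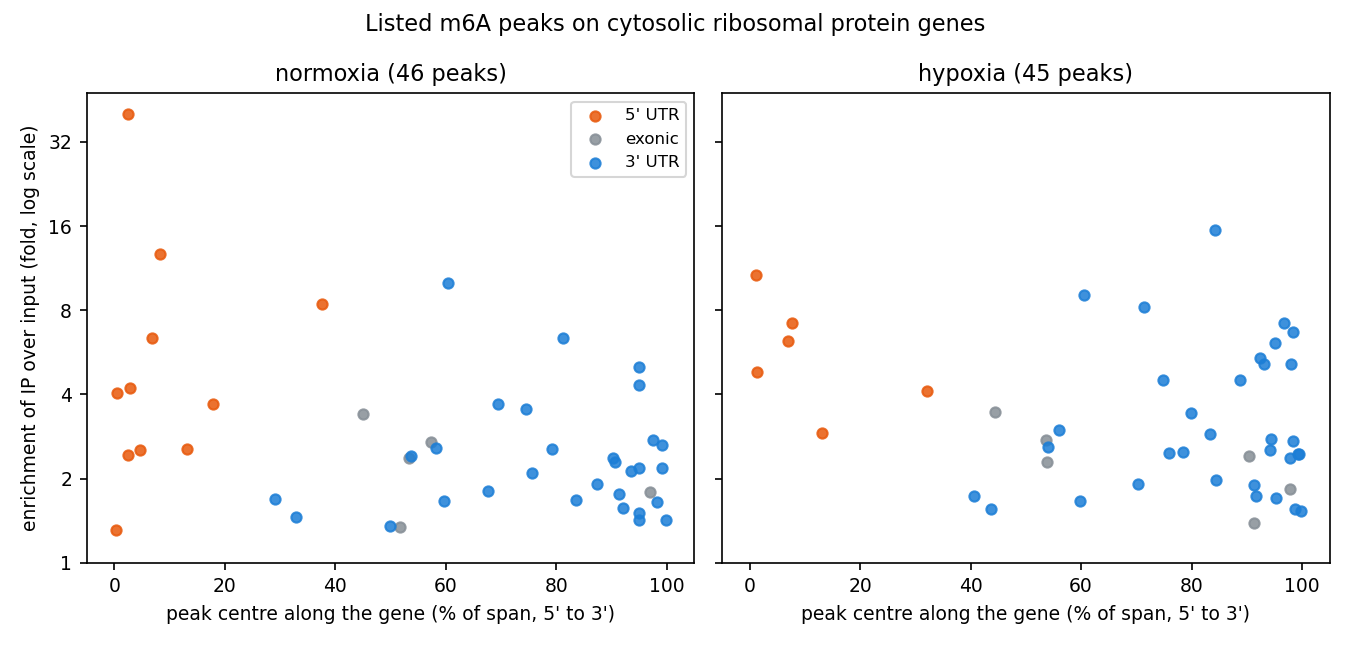
Listed m6A peaks of cytosolic RP genes in normoxia (46 peaks) and hypoxia (45 peaks). The x axis gives the centre of each peak along its gene in percent of the span, the y axis the authors' enrichment of IP over input on a log scale, and colours the annotated region. Most points lie past the middle of the gene, 31 in normoxia and 36 in hypoxia. Most are at low enrichment, with medians of 2.39 and 2.76, and the highest normoxia point is a 5′ UTR peak of RPL10A.

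The enrichments of member peaks were low within each list. Their median was 2.39 in normoxia, where all peaks had 4.23 and peaks of other genes at 100 FPKM or more 2.44. In hypoxia the 3 medians were 2.76, 4.81 and 2.80. The strongest member peak in normoxia was in the 5′ UTR of RPL10A, a large-subunit protein near the exit site of tRNA (chr7:31327440-31327738, plus strand, enrichment 40.2, adjusted p = 2.19e-10 in the authors' deposited list), a site with no peak in the hypoxia list. RPL29 (12.7), RPL7L1 (9.98) and RPL35 (8.46) followed in the authors' deposited normoxia list, where the adjusted p of the RPL35 peak was 0.191.

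In hypoxia the strongest was a 3′ UTR peak of RPL4, a protein of the exit tunnel (chr1:164476107-164476557, minus strand, enrichment 15.5, adjusted p listed as 0 in the authors' deposited list). The normoxia list had a peak with the same 3′ end at 6.39. RPS25, needed by some viral internal ribosome entry sites, had a 5′ UTR peak of 10.7, RPL7L1 had 9.04 and RPS27A 8.25, the last with an adjusted p of 0.211 in the authors' deposited list. In all, 3 normoxia and 6 hypoxia peaks of members had an adjusted p of 0.05 or more. RPL5 had the most peaks in normoxia, 4, and 3 in hypoxia, as had RPS19 and RPS25. Its peaks were all in the 3′ UTR, at enrichments from 1.51 to 2.64 in normoxia and from 2.50 to 4.49 in hypoxia.

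Of the 1206 differential peaks in the authors' deposited table, 1 was on a member. It was an exonic peak of the small-subunit gene RPS24 (chr14:80475901-80477953, plus strand), with a log2 difference of 0.185, higher in hypoxia, and an adjusted p of 2.51e-29 in the authors' deposited table. Only 26 of the 1206 listed differences were smaller in size, and the median size was 0.509. RPS24 was 2.78% of the 36 members with a peak in either list, and 8.76% of all genes with a peak had a differential one. The RPS24 peaks of the condition lists had other starts, 80476081 in normoxia and 80476021 in hypoxia. Their enrichments were 3.41 and 3.47, a log2 difference of 0.025, smaller than the listed 0.185. The input RNA of RPS24 was 180, 180 and 184 FPKM in normoxia and 206, 180 and 167 FPKM in hypoxia, an overlapping range (log2 fold change 0.02, SE 0.133, limma adjusted p = 0.942). No values per library were used for peaks, so replicate error could not be set beside these differences.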

How the data were processed

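The authors' deposited table holds FPKM for 18060 genes in the 6 input libraries. The authors' deposited peak tables give each peak a log2 enrichment (IP against input) with a raw and an adjusted p-value, and another deposited table compares expression per gene (log2 fold change with p- and q-values). The submitters' processing notes name HISAT2 2.0.4, StringTie 2.1.2, HOMER 4.10, edgeR 4.1, fastp 0.19.4, FastQC and the build Sscrofa11.1. How peaks were called, whether replicates were pooled and which tool made each table are points not given in the sources used here. Input RNA was compared with limma 3.58.1 in R 4.3.3 (variance trend, robust) on log2(FPKM + 1). The 10196 genes that reached 1 FPKM in 3 or more libraries were tested, with Benjamini-Hochberg adjustment over all of them. The log2(FPKM + 1) scale understates changes of low genes. Low FPKM values were searched for whole-read steps, and the most frequent ratio was shared by 7 of 2344 genes.

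Alternatives were median-ratio scaling, a pseudocount of 0.1, no filter on low values, a mean of at least 5 FPKM, a replicate block and leaving out each library. Positive differential m6A was read as higher in hypoxia, since 87 of 519 such peaks overlapped the hypoxia list alone and 0 the normoxia list alone. Deposited peak starts count from 0, and 1 was added here. Named genes were the stalk, 5S-binding and selected functional members, the paralogs, RPs outside the name pattern, the 3 highest and 3 lowest members, the 4 members with the strongest peaks in each list, members with a differential peak, and the 2 called genes with the largest change in each direction of each other list. Members named for their values between libraries were chosen after these were seen. Members and lists were chosen with earlier results of these data known. Single values of some named genes are not reported here.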

Additional observations from a re-analysis of the deposited data

How the results depend on the processing

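Of 64 tested RP genes, 0 were called in either direction with all libraries, and also after median-ratio scaling, with a pseudocount of 0.1, without a filter and at a mean of at least 5 FPKM. Leaving out 1 library gave 0 to 6 higher and 0 to 1 lower. With a replicate block 2 were lower, RPL26L1 (limma adjusted p = 0.0313) and RPS27L (0.0398), and 0 higher; LARP1 also passed (0.0451). Deviations of same-numbered libraries had correlations of 0.586, 0.0398 and 0.697, and 4 of 6 libraries correlated best with their own number, so the numbers were not taken to pair the samples. The median log2 fold change of the RP genes was 0.28 after scaling and -0.099 to 0.075 with a library left out. The difference in share of total FPKM, hypoxia minus normoxia, was -0.05 percentage points, 0.72 without the 20 highest other genes and -0.42 to 0.33 with a library left out. After scaling, 18 ribosome assembly, 1 RNA polymerase I transcription and 13 mitochondrial RP genes were lower, beside 8.07% of all genes. With a library left out the ranges were 15 to 37, 3 to 6 and 17 to 38. Of all genes 7.83% were lower without normoxia library 2 and 31.2% without hypoxia library 3. Members with a peak of log2 enrichment of at least 1 numbered 23 in normoxia and 25 in hypoxia, and of at least 2, 9 and 14. The cause of these changes was not tested. Depth is unknown, so no counting interval is given.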
